A study of Mus musculus with 8 samples.

Results

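Auts2, Esrrg, Rbms3, Pde4d, Etl4, Macrod2 and Syt1 are 7 of the 21900 protein-coding genes in the RefSeq annotation of mouse build GRCm38.p6, the same build as mm10. They were chosen because their loci hold many more ATAC-seq peaks in lists from EpCAM-high liver cells than in lists named Prog-like. They were selected on measured values, the difference in peaks per locus between EpCAM-high and Prog-like lists cut to equal length, for CK19 and for Sox9. Each of the 7 genes was among the 5 largest differences for at least one of these labels. A locus is the gene body with 10 kb on either side. These differences are therefore a description of the choice and not a result. At the edge of the choice, Rbms3 was the fifth for CK19 with 24 peaks in the EpCAM-high list against 0 in the Prog-like list. Syt1 tied with it at 24 against 0, Etl4 followed with 22 against 0, and Sntg1, the first gene outside, had 21 against 0. For Sox9, Rbms3 was again the fifth with 23 against 0, and Sox5, just outside, had 22 against 0.

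The study measured open chromatin by ATAC-seq, in which a transposase inserts adapters into accessible DNA, in cells of an Rb family triple knockout model of hepatocellular carcinoma. Cells came from digested liver or visible lesions and carried YFP, which marks Cre recombination of the floxed alleles. The labels list 8 samples in 5 groups: EpCam_High_CK19 (2 samples), EpCam_High_Sox9 (1), Thy1+ CK19 (2), Thy1+ Sox9 (1) and Epcam- (2). EpCAM is a surface protein of bile duct and liver progenitor cells, Thy1 is a surface protein of mesenchymal and some immune and progenitor cells, and CK19 and Sox9 are biliary markers. The labels do not say what CK19 and Sox9 stand for in the sample names. All groups were sorted for YFP as the mark of recombination, and the state of each floxed allele in the sorted cells is not given. The labels name neither the floxed alleles one by one, nor the Cre driver, the age of the animals, or an unrecombined control. The deposited data used here are 5 peak lists, 1 per condition: EpCAM-high (CK19, then Sox9), Prog-like (CK19, then Sox9) and Tumor Sox9. Both EpCAM-high lists match sample groups by name, whereas the Prog-like and Tumor lists match none of the labelled groups by name. There was 1 list per condition, so no difference between lists has a replicate check and no test was made. Neither the sequencing depth nor whether libraries were pooled before calling is given in the sources used here.

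The lists held 56932 and 59454 peaks for EpCAM-high (CK19, then Sox9), 71375 and 67855 for Prog-like (CK19, then Sox9) and 39644 for Tumor Sox9. List length can move with depth, so counts are also given with every list cut to its 39644 most significant peaks. The cell type of the lists was checked on markers. The loci of 6 biliary and progenitor markers (Epcam, Krt19, Krt7, Sox9, Spp1, Cftr) together held 33 and 36 peaks in the EpCAM-high lists (CK19, then Sox9), 6 and 4 in the Prog-like lists (CK19, then Sox9) and 8 in Tumor Sox9. Epcam itself held 2, 2, 3, 3 and 1 peaks in that order and so did not separate the lists, whereas Cftr, a chloride channel gene, held 16, 15, 0, 0 and 1. The loci of 5 macrophage and leukocyte markers held 3, 5, 39, 37 and 0 peaks in that order, and those of 3 endothelial markers held 4, 4, 32, 26 and 8. Of the 5 macrophage and leukocyte markers, 4 had no peak in EpCAM-high CK19, 3 had none in EpCAM-high Sox9, each had peaks in both Prog-like lists, and all 5 had none in Tumor Sox9. The loci of 5 hepatocyte markers held 8, 12, 7, 6 and 15 peaks, and those of 4 mesenchymal markers held 4, 7, 10, 8 and 1. Thy1 and Des had no peak in any list, Pdgfrb held 1, 2, 9, 8 and 0, and Col1a1 held 3, 5, 1, 0 and 1. The biliary, leukocyte and endothelial sums separate the EpCAM-high from the Prog-like lists, the contrast that chose the 7 genes. The hepatocyte and mesenchymal sums did so less. The part of any of these marker sets in the differences below was not tested. In bulk samples, fewer cells with an open site and less opening per cell cannot be told apart.

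Very long genes consist almost wholly of intron, and their introns often carry clusters of distal regulatory elements that act on the host gene or on neighbours. Many long genes also have several transcription starts far apart, each used in other tissues. A peak inside such a gene marks accessible DNA and does not by itself say which gene it acts on. Most of the 7 genes are best known outside the liver. Auts2 encodes a nuclear protein that associates with a Polycomb complex in neurons, Esrrg an orphan nuclear receptor of oxidative metabolism, and Rbms3 an RNA-binding protein. Pde4d encodes a phosphodiesterase that degrades cAMP, with many isoforms from separate promoters. Etl4, also called Skt, is needed for the intervertebral disc in mouse. Macrod2 encodes an enzyme that removes ADP-ribose from proteins, and Syt1 the calcium sensor of synaptic vesicles. As a check for nerve cells, the loci of 4 neuronal markers (Rbfox3, Snap25, Map2, Tubb3) held 17, 15, 11, 9 and 4 peaks in EpCAM-high (CK19, then Sox9), Prog-like (CK19, then Sox9) and Tumor Sox9.

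The genes lie on 6 chromosomes and together span 7.48 Mb. Auts2 is at chr5:131437333-132543220 (1106 kb), Esrrg at chr1:187608510-188214885 (606 kb, plus strand) and Rbms3 at chr9:116572746-117629913 (1057 kb, minus strand). Pde4d is at chr13:108654177-109955969 (1302 kb, plus strand) and Etl4 at chr2:19910207-20810535 (900.3 kb, plus strand). Macrod2 is at chr2:140395303-142392966 (1998 kb, plus strand) and Syt1 at chr10:108497650-109010980 (513 kb, minus strand). The median protein-coding gene spans 17.1 kb, and 218 are at least as long as Syt1, the shortest of the 7. Exons were not separated from introns, since the annotation used here gives gene bounds alone. Positions below are distances from the upstream end of the gene body, called the gene start, which need not be a listed transcription start. For Etl4 the first listed start lies 380 kb from it. For Auts2 positions run from the lower coordinate because no strand was at hand.

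The RefSeq promoter table has 14 start sites for 6 of the 7 genes. The peaks fell at some starts of a gene and not at others, so 6 promoters are shown: the EpCAM-high-only start of Esrrg, an open and an unmarked start of Rbms3, the marked internal start of Etl4, the Macrod2 start found in all 5 lists and the outer Syt1 start. Each is the 250 bases before the start, 5′ to 3′ on the gene's strand. Capitals mark matches on either strand to the motifs searched, which here are the CCAAT box (CCAAT), the GC box (GGGCGG) and the TATA box (TATAAA).
Esrrg, start at 389 kb: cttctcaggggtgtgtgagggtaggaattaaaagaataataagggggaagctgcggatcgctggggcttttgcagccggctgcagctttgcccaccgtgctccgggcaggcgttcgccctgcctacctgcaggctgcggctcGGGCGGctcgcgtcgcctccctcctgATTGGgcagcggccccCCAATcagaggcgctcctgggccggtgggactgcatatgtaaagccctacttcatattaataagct
Rbms3, start at 377 kb: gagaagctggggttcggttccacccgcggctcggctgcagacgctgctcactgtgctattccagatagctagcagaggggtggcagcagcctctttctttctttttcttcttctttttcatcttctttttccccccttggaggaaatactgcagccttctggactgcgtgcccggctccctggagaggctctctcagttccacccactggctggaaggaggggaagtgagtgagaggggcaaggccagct
Rbms3, outermost start: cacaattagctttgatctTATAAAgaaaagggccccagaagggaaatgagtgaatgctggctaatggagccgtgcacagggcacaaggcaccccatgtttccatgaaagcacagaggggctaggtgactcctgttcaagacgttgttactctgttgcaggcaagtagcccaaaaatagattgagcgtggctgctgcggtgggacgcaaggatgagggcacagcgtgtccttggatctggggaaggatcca
Etl4, start at 609 kb: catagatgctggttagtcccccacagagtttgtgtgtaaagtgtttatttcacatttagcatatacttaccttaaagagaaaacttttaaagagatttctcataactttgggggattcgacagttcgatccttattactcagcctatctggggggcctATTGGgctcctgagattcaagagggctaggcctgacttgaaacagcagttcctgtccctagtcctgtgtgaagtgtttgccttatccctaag
Macrod2, start at 0.127 kb: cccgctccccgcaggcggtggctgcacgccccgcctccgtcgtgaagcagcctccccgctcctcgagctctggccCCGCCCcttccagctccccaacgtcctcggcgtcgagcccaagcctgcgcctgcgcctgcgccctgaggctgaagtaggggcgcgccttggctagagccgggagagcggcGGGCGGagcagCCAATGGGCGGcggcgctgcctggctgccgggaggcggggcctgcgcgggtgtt
Syt1, start at 0.005 kb: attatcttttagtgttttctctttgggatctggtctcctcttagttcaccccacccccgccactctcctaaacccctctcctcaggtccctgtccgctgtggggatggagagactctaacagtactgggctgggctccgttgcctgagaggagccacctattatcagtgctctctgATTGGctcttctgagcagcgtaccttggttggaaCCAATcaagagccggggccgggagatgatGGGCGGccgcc

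The Esrrg window is chr1:187997577-187997826 on the plus strand, with 61.2% GC and 16 CpG, against medians of 52.4% GC and 6 CpG over all 32817 RefSeq promoters. It holds 2 CCAAT boxes on opposite strands and 1 GC box. The open Rbms3 window is chr9:117252484-117252733 on the minus strand (57.2% GC, 7 CpG) and holds no match. The outermost Rbms3 window is chr9:117629914-117630163 on the minus strand (52% GC, 6 CpG) with 1 TATA box. The Etl4 window is chr2:20519263-20519512 on the plus strand (43.2% GC, 2 CpG) with 1 CCAAT box. The Macrod2 window is chr2:140395180-140395429 on the plus strand (76.4% GC, 30 CpG) with 1 CCAAT box and 3 GC boxes, of which 1 lies directly after the CCAAT box. The Syt1 window is chr10:109010976-109011225 on the minus strand (56.4% GC, 8 CpG) with 2 CCAAT boxes and 1 GC box. Among all RefSeq promoters, 33.8% hold a CCAAT box, 32.7% a GC box and 12.4% a TATA box on either strand. Also searched, and not found in these 6 windows, were AP-1 (TGANTCA, in 6.75% of promoters), TEAD (GGAATG, 12.6%), SOX (ACAATG, 10.7%), FOXA (TGTTTAC, 3.16%), the E-box (CACGTG, 6.02%) and E2F (TTTGGCGC, 0.417%). No match says only that these letters are not in these windows. Beyond the windows shown, the first Esrrg start, at 0.496 kb, holds AP-1, TEAD and TATA matches.

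At Esrrg, all 4 start sites (0.496, 43.2, 43.7 and 389 kb) had a peak within 1 kb in both EpCAM-high lists. The start at 389 kb was marked in the EpCAM-high lists alone, with −log10 q of 126 in EpCAM-high CK19 and 48.9 for EpCAM-high Sox9. The −log10 q value is the authors' measure of how far a peak stands above its background, and it ranks peaks within a list only. The other 3 Esrrg starts also had a weak Prog-like CK19 peak, with −log10 q of 4.40 to 5.19. No Esrrg start had a Tumor Sox9 peak.

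The outermost start of Rbms3 had no peak within 1 kb in any of the 5 lists, whereas its internal start at 377 kb had −log10 q of 37.1 in EpCAM-high CK19, 14.1 in EpCAM-high Sox9 and 3.42 in Prog-like CK19. The lncRNA gene Gm17396 overlaps the region of that peak, so the peak is not tied to Rbms3 alone. Of the 3 Etl4 start sites in the promoter table, those at 380 and 599.8 kb lacked a nearby peak (1 kb or less) in all 5 lists, while the one at 609 kb was marked, with −log10 q of 51.0 in EpCAM-high CK19, 47.4 in EpCAM-high Sox9 and 20.8 in Tumor Sox9, and with no Prog-like peak. The outer Syt1 start had −log10 q of 88.2 in EpCAM-high CK19, 50.3 in EpCAM-high Sox9 and 1.73 in Prog-like Sox9. The Macrod2 start was open in all 5 lists, with −log10 q of 461, 346, 251, 159 and 84.1 in EpCAM-high (CK19, then Sox9), Prog-like (CK19, then Sox9) and Tumor Sox9. No peak lay within 1 kb of the single listed Pde4d start in any list. At the higher end of Auts2 there was a peak in EpCAM-high CK19, EpCAM-high Sox9 and Prog-like CK19.

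The 7 loci together held 298 and 288 peaks in the EpCAM-high lists (CK19, then Sox9), 74 and 64 in the Prog-like lists (CK19, then Sox9) and 101 in Tumor Sox9. Auts2 held 38, 41, 4, 1 and 4 peaks in that order. Esrrg held 28, 23, 6, 2 and 5, and Rbms3 30, 29, 1, 2 and 5. In these 3 genes both EpCAM-high lists stood far above the 3 others, Tumor Sox9 included. Pde4d held 65, 59, 27, 26 and 29 peaks, and Macrod2 76, 56, 26, 24 and 31. These were the genes with most peaks in every list, and the Prog-like lists held over 20 peaks in each. Etl4 held 28, 48, 6, 3 and 13, and Syt1 33, 32, 4, 6 and 14, with Tumor Sox9 between the EpCAM-high and Prog-like lists. With equal list lengths, the Prog-like lists kept no peak in Auts2, Esrrg, Rbms3, Etl4 or Syt1, and kept 14 and 15 in Pde4d and 16 and 13 in Macrod2 (CK19 and Sox9). Per length, Syt1 was densest, with 6.2 and 6.0 peaks per 100 kb in EpCAM-high CK19 and EpCAM-high Sox9, and Rbms3 sparsest, with 2.79 and 2.69.

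**Figure D1:**
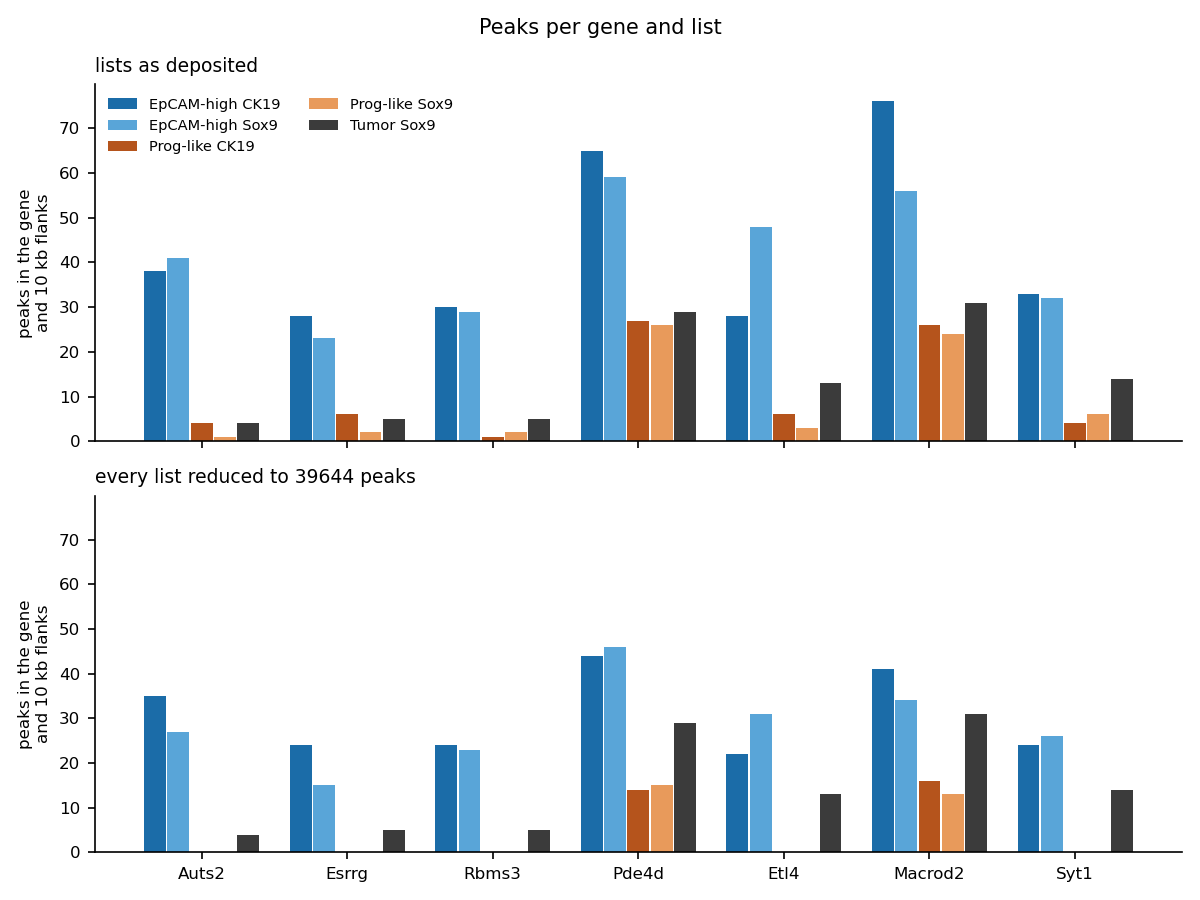
Peaks per gene (bars, number of peaks in the gene and 10 kb on either side) in the 5 lists, as deposited above and with every list cut to 39644 peaks below. At equal length the Prog-like bars are at 0 in all of the 7 genes but Pde4d and Macrod2, and the Tumor Sox9 bars range from 4 in Auts2 to 31 in Macrod2.

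A count was called different where 2 lists together held 10 or more peaks in a gene and one held at least 4 times as many as the other after adding 1 to each. Of 184 long genes so compared, 20.1% were higher in EpCAM-high CK19 than in Prog-like CK19, and 16.2% of 167 were higher in EpCAM-high Sox9 than in Prog-like Sox9. In both contrasts the same 5 of the 7 genes passed (Auts2, Esrrg, Rbms3, Etl4 and Syt1), and since these contrasts chose the genes, nothing is read from that. Against Tumor Sox9, which the choice did not use directly, 15.5% of 161 long genes were higher in EpCAM-high Sox9 and 17% of 171 in EpCAM-high CK19. Auts2, Esrrg and Rbms3 passed in both, so 3 of the 7 genes were past the fold against Tumor Sox9. Both contrasts share the EpCAM-high lists that entered the choice. The median log2 ratio of EpCAM-high Sox9 over Tumor Sox9 was 1.81 over the 7 genes and 0.68 over the long genes tested. With equal list lengths it was 1.19 over the 7 genes and −0.04 over the long genes, 5.07% of the long genes were past the fold, and of the 7 genes Auts2 and Rbms3 were. For EpCAM-high CK19 over Tumor Sox9 at equal length, 8.57% of the long genes were past the fold, and Auts2, Esrrg and Rbms3 were among them. Between the EpCAM-high lists, none of the 7 genes was past the fold, where 4.86% of 185 long genes were higher in EpCAM-high CK19 and, the other way, 0.541% in EpCAM-high Sox9.

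**Figure D2:**
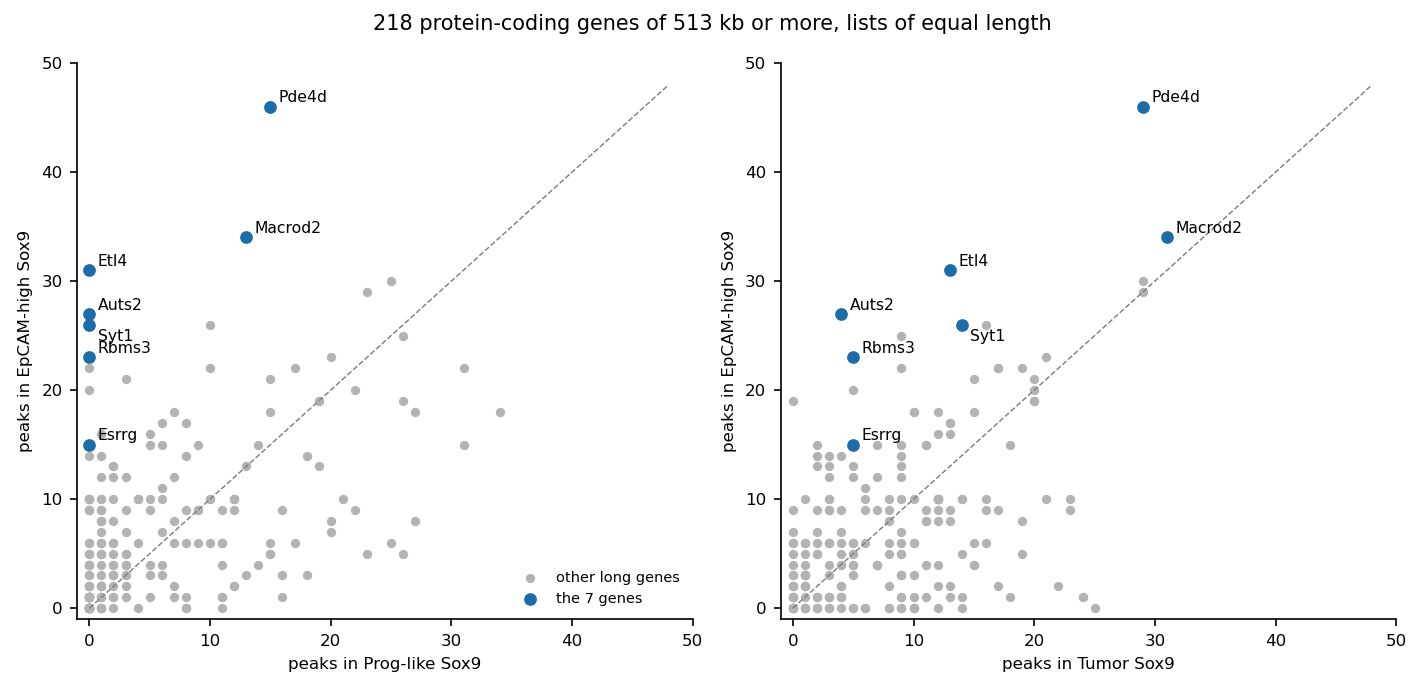
Peaks per gene in EpCAM-high Sox9 (vertical axis) against Prog-like Sox9 (left) and Tumor Sox9 (right), for 218 protein-coding genes at least as long as Syt1, with lists cut to equal length. Dashed lines mark equal counts. Against Prog-like Sox9, 5 of the 7 genes sit at 0 on the horizontal axis, while against Tumor Sox9 Macrod2 has 34 and 31 peaks, near the line.

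The peaks were unevenly spread, and both EpCAM-high lists were densest in the same stretches of most genes. In Auts2, one 100 kb window from 101 kb held 13 EpCAM-high CK19 and 11 EpCAM-high Sox9 peaks. The strongest Auts2 region in both lists, chr5:131600079-131600942, lies in that window, with −log10 q of 199 in EpCAM-high CK19, 149 in EpCAM-high Sox9 and 12.3 in Prog-like CK19. The Auts2 locus had a stretch of 999 kb without a summit in Prog-like Sox9.

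In Esrrg, 23 of 28 EpCAM-high CK19 peaks and 16 of 23 EpCAM-high Sox9 peaks lay on the start side of the midpoint, and the window from 132 to 232 kb was the densest in both, with 11 and 8 peaks. That window holds the strongest EpCAM-high CK19 region of the gene, chr1:187822921-187823980, with −log10 q of 158 in EpCAM-high CK19, 57.9 in EpCAM-high Sox9 and 5.83 in Prog-like CK19. The strongest EpCAM-high Sox9 region, chr1:187910583-187911138, had 60.5 in EpCAM-high CK19 and 62.5 for EpCAM-high Sox9 and no peak elsewhere. One Esrrg region was in all 5 lists, chr1:188055887-188056522, with 36.6, 33.4, 14.6, 8.59 and 7.41. In Rbms3, EpCAM-high Sox9 had 11 peaks between 347 and 447 kb, a window that includes the internal start, while EpCAM-high CK19 had at most 6 in any 100 kb. Its strongest region in both lists, chr9:117133806-117134381, had −log10 q of 168 in EpCAM-high CK19 and 90.7 for EpCAM-high Sox9 and no peak in the other lists.

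Pde4d peaks lay mostly beyond the midpoint, 42 of 65 in EpCAM-high CK19 and 45 of 59 in EpCAM-high Sox9. EpCAM-high Sox9 had no summit between 203 and 462 kb. The strongest Pde4d region, chr13:109481444-109482167, had −log10 q of 224 in EpCAM-high CK19, 215 in EpCAM-high Sox9, 6.48 in Prog-like CK19 and 58.9 in Tumor Sox9. Etl4 peaks also lay toward the far end, and here the EpCAM-high lists differed: 2 of 28 EpCAM-high CK19 peaks were on the start side of the midpoint, against 14 of 48 EpCAM-high Sox9 peaks. The first EpCAM-high CK19 summit was 430 kb into Etl4, whereas EpCAM-high Sox9 had a weak peak at the outer end of the gene, with −log10 q of 4.06. The strongest Etl4 regions were chr2:20736383-20737708, with 66.3 in EpCAM-high CK19, 55.5 in EpCAM-high Sox9 and 31.0 in Tumor Sox9, and chr2:20339179-20340601, with 41.9 in EpCAM-high CK19 and 57.4 for EpCAM-high Sox9 and no peak elsewhere.

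In Macrod2, 49 of 76 EpCAM-high CK19 and 38 of 56 EpCAM-high Sox9 peaks lay on the start side of the midpoint. Macrod2 contains Flrt3, which encodes a membrane protein of cell adhesion and axon guidance, and the peak at the Flrt3 start (chr2:140670458-140671721) was in all 5 lists, with −log10 q of 337, 218, 169, 104 and 83.8. Both regions of the Macrod2 locus found in all 5 lists were thus at a gene start. In Syt1, 14 of 33 EpCAM-high CK19 and 11 of 32 EpCAM-high Sox9 peaks lay on the start side of the midpoint. The gene had no EpCAM-high CK19 summit between 200 and 277 kb and no EpCAM-high Sox9 summit between 144 and 277 kb. Its strongest EpCAM-high CK19 region, chr10:108620827-108621530, had −log10 q of 164 in EpCAM-high CK19 and 31.3 for EpCAM-high Sox9. The strongest EpCAM-high Sox9 region, chr10:108537712-108539220, had 98.4 in EpCAM-high CK19, 86.4 in EpCAM-high Sox9 and 44.8 in Tumor Sox9. Other genes inside the 7 loci are mostly lncRNAs, pseudogenes and small RNAs, and of these Gm39452 and Gm17396 (Rbms3) and Gm32703 (Pde4d) overlapped peaks of both EpCAM-high lists. Gm36388 and Gm46176 (Esrrg) and Gm36601 (Syt1) did too, but run on beyond the loci, so part or all of those peaks lie outside. The protein-coding gene Gm5136, inside Syt1, overlapped no peak in any list.

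**Figure D3:**
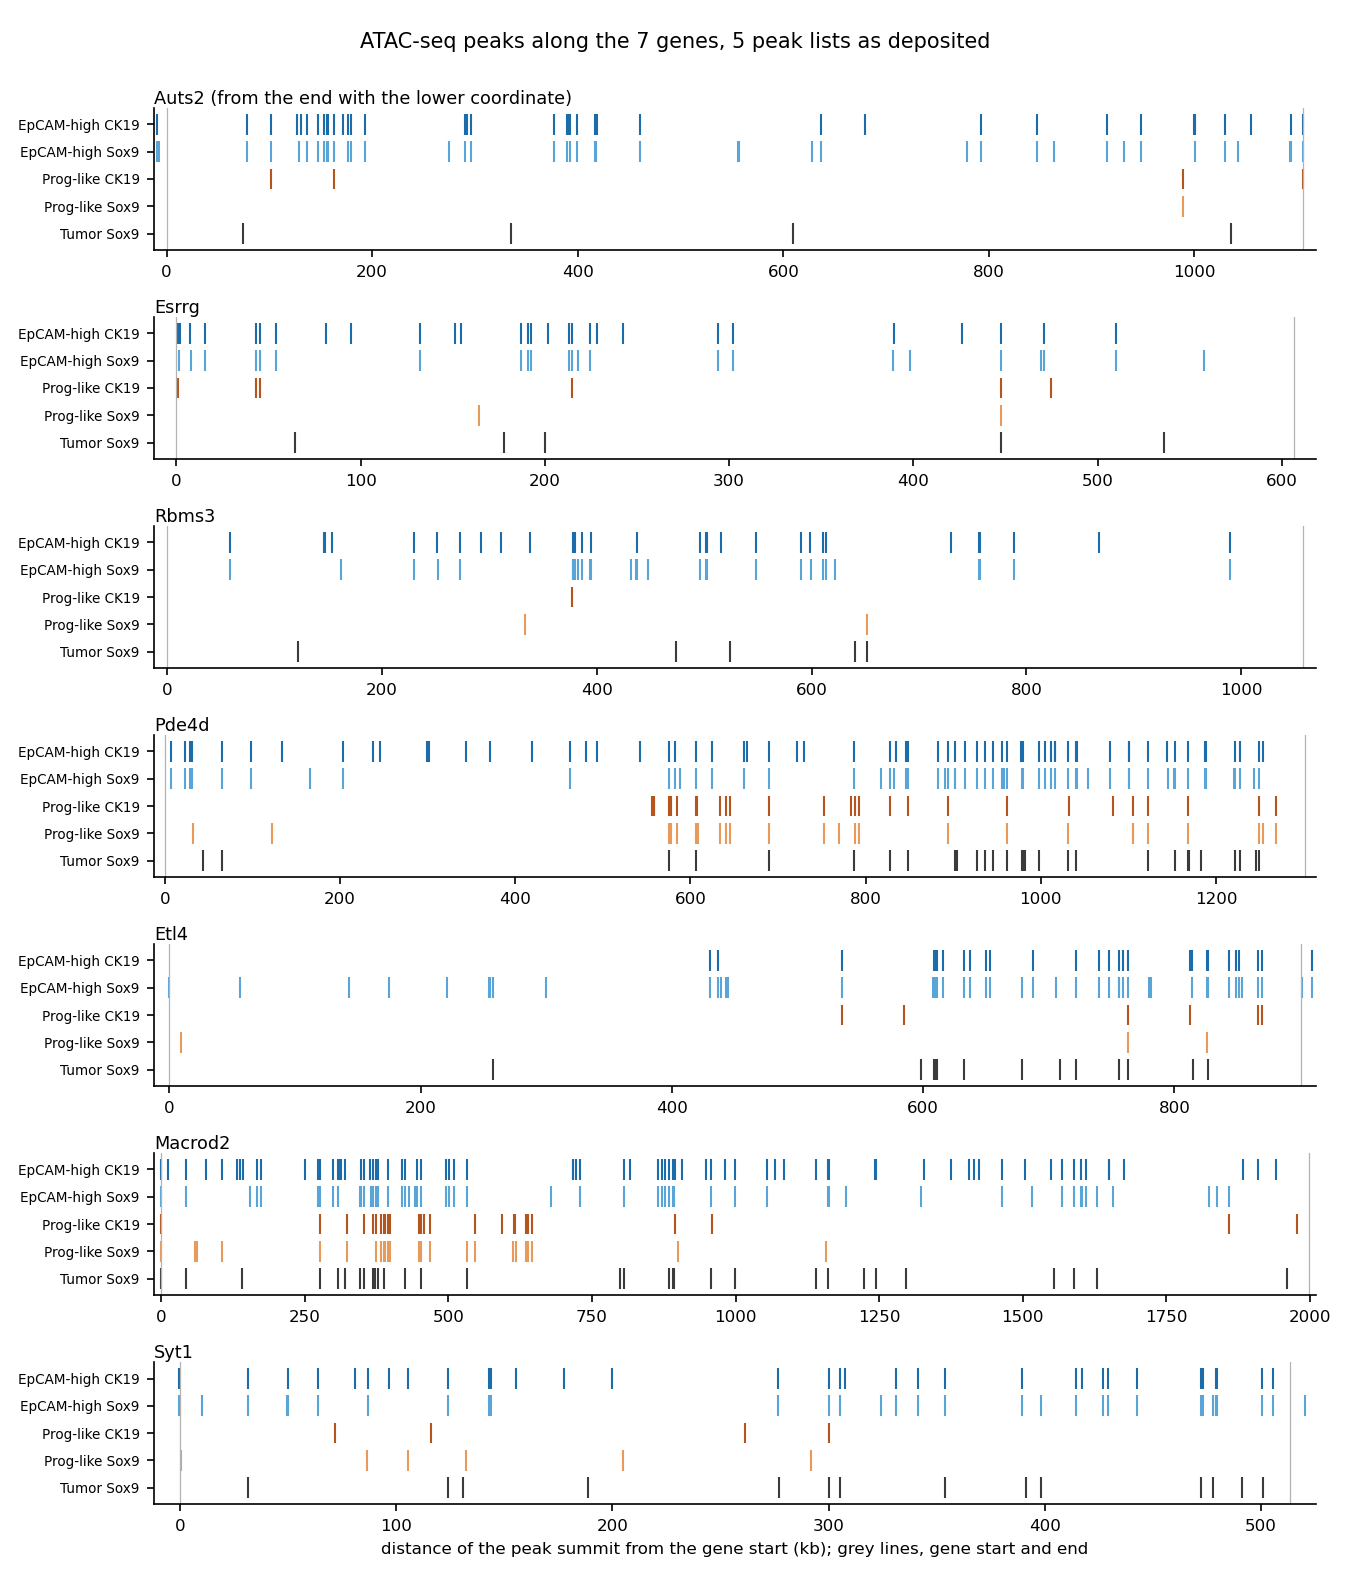
Peak summits (vertical ticks) along each gene in the 5 lists as deposited; the horizontal axis is the distance from the gene start in kb, or from the lower coordinate for Auts2, and grey lines mark the gene ends. The EpCAM-high rows line up at many positions, and the Prog-like rows fill in Pde4d and Macrod2, partly at other positions.

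Most EpCAM-high peaks of the 7 genes were found in both EpCAM-high lists. Of the EpCAM-high CK19 peaks, 211 of 298 (70.8%, exact 95% interval 65.3 to 75.9) overlapped an EpCAM-high Sox9 peak by at least 1 bp. Of the EpCAM-high Sox9 peaks, 218 of 288 (75.7%, 70.3 to 80.5) overlapped an EpCAM-high CK19 peak. The same shares over all peaks were 69.1% and 68.5%, and over the other long genes 47.4% and 57.3%. The intervals cover counting error only, and neighbouring peaks are not independent. The sharing of single sites was not itself used in the choice, though Auts2, Rbms3 and Pde4d were among the 5 largest differences for both labels. The choice counted peaks in lists cut to the most significant, so it favoured strong peaks, which were shared more often. At equal list length 214 of the 298 and 202 of the 288 peaks stayed. Summed over the 218 long genes, the 7 included, 1664 of 3199 and 1663 of 2779 did. The choice thus fixed the gap to the other long genes in part, and these were not compared at matched strength.

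Shares differed between genes. For EpCAM-high CK19 peaks, 30 of 38 were shared in Auts2, 20 of 28 in Esrrg, 21 of 30 in Rbms3, 47 of 65 in Pde4d, 27 of 28 in Etl4, 41 of 76 in Macrod2 and 25 of 33 in Syt1. Etl4 was at place 3 from the highest of 141 long genes with 10 or more such peaks, and Macrod2 was at place 77, below their median of 56.5%. For EpCAM-high Sox9 peaks, 31 of 41 were shared in Auts2, 19 of 23 in Esrrg, 22 of 29 in Rbms3, 48 of 59 in Pde4d, 29 of 48 in Etl4, 42 of 56 in Macrod2 and 27 of 32 in Syt1. Etl4 was here at place 60 of 114 genes. The Etl4 locus thus had 17 regions in EpCAM-high Sox9 alone and 0 in EpCAM-high CK19 alone. These were not only weak peaks: with −log10 q of 5 or more, 15 of 40 EpCAM-high Sox9 peaks and 1 of 25 EpCAM-high CK19 peaks in Etl4 were unshared. With equal list lengths the imbalance was smaller, with 12 of 31 EpCAM-high Sox9 and 4 of 22 EpCAM-high CK19 peaks unshared. Macrod2 had the reverse imbalance, with 31 regions in EpCAM-high CK19 alone and 11 in EpCAM-high Sox9 alone. Its 35 unshared EpCAM-high CK19 peaks were weak, with a median at percentile 12.6 of −log10 q in the list, and with −log10 q of 5 or more 34 of 43 were shared. With equal list lengths, 28 of 41 EpCAM-high CK19 peaks and 29 of 34 EpCAM-high Sox9 peaks in Macrod2 were shared.

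Sharing rose with peak strength. Shared EpCAM-high CK19 peaks of the 7 genes had a median at percentile 70.5 of their list by −log10 q, and unshared ones at percentile 18.3. For EpCAM-high Sox9 the medians were at percentiles 61.6 (shared) and 23.1 (unshared). With each list divided into 4 bins of −log10 q, 21.7%, 71.4%, 83.3% and 100% of the EpCAM-high CK19 peaks were shared from the weakest to the strongest bin. In the strongest bin all 91 peaks overlapped an EpCAM-high Sox9 peak. The shares of EpCAM-high Sox9 peaks were 43.1%, 71.6%, 84.3% and 98.7%. Over gene-body peaks of all genes away from gene ends, the 7 genes included, they were 26.7%, 66.2%, 88.9% and 98.8% for EpCAM-high CK19 and 35.6%, 55.3%, 78.4% and 93.8% for EpCAM-high Sox9. For EpCAM-high CK19, the gene-body share lay inside the exact interval of the 7 genes in each of the 4 bins. For EpCAM-high Sox9 the 7 genes were higher in each bin, with the gene-body share outside their interval (59.9 to 81.5) in bin 2 and inside it in the others.

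**Figure D4:**
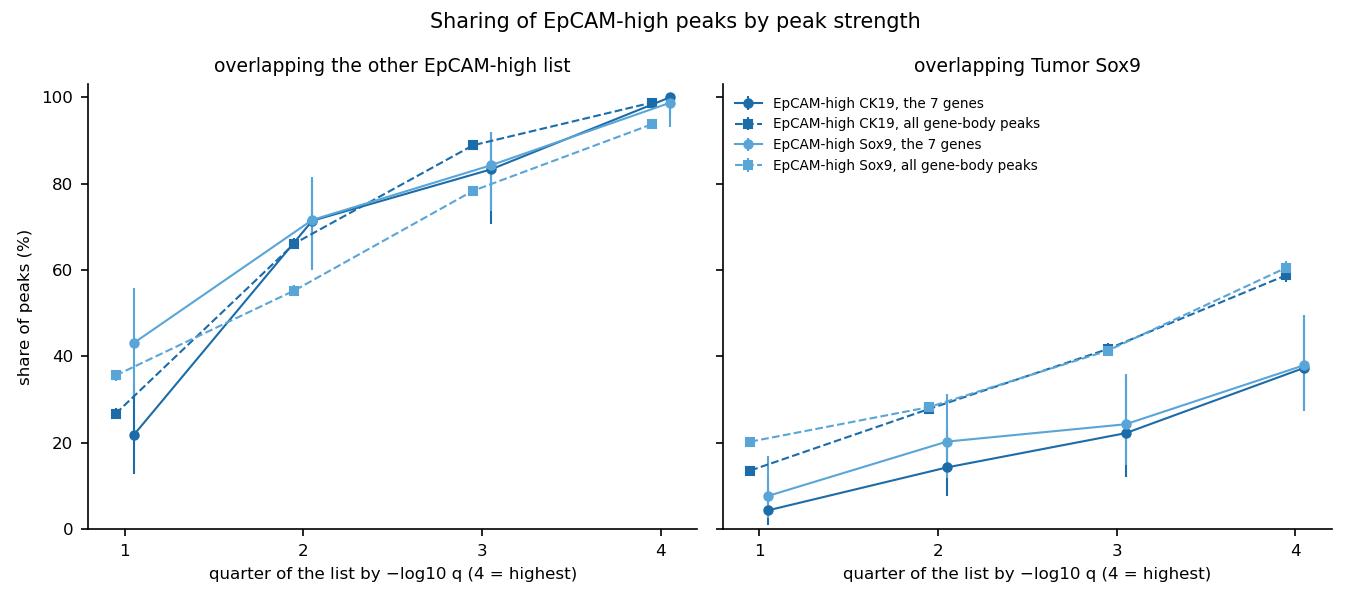
Share of EpCAM-high peaks (vertical axis, %) that overlap the other EpCAM-high list (left) or Tumor Sox9 (right), by bin of −log10 q within the list (horizontal axis, bin 4 strongest). Circles and solid lines are the 7 genes with exact 95% intervals, and squares and dashed lines are gene-body peaks of all genes, the 7 included. Sharing with Tumor Sox9 in the strongest bin is 37.4% and 38.0% in the 7 genes, against 58.8% and 60.6% over gene bodies. Other long genes are not shown by bin. Over all bins their shares with Tumor Sox9 were 19.8% and 26.4%, against 20.5% and 23.3% in the 7 genes.

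Fewer EpCAM-high peaks of the 7 genes were in the other lists. Of the EpCAM-high CK19 peaks, 11.1% (7.75 to 15.2) overlapped Prog-like CK19 and 7.05% Prog-like Sox9, where all EpCAM-high CK19 peaks gave 38.1% and 34.7%. Those in the other long genes gave 15.8% and 13.0%. Of the EpCAM-high Sox9 peaks, 11.8% overlapped Prog-like CK19 and 6.25% Prog-like Sox9, where all gave 38.2% and 35.1% and those in the other long genes 19.0% and 16.4%. The choice fixed the low Prog-like shares in part. Tumor Sox9 overlapped 20.5% (16 to 25.5) of the EpCAM-high CK19 peaks and 23.3% (18.5 to 28.6) of the EpCAM-high Sox9 peaks. Over all peaks these shares were 40.8% and 42.9%, and over the other long genes 19.8% and 26.4%. The low Tumor Sox9 share was therefore near that of other long genes.

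The Tumor Sox9 share divided the 7 genes, which were grouped after these values were seen, so the intervals below describe the groups and test no difference between them. In Auts2, Esrrg and Rbms3, 1 of 96 EpCAM-high CK19 peaks (1.04%, 0.0264 to 5.67) and 1 of 93 EpCAM-high Sox9 peaks (1.08%, 0.0272 to 5.85) overlapped a Tumor Sox9 peak. The 14 Tumor Sox9 peaks in Auts2, Esrrg and Rbms3 all lay below the median −log10 q of their list, 8.78. The highest was 3.50 in Auts2, 7.41 in Esrrg (percentile 43.2 of the list) and 2.81 in Rbms3. Of the 14, 1 overlapped each EpCAM-high list. In Pde4d, Etl4, Macrod2 and Syt1, 60 of 202 EpCAM-high CK19 peaks (29.7%, 23.5 to 36.5) and 66 of 195 EpCAM-high Sox9 peaks (33.8%, 27.2 to 41.0) overlapped Tumor Sox9. The shares over the other long genes were 19.8% and 26.4%. Of the 87 Tumor Sox9 peaks in these 4 genes, 60 (69.0%, 58.1 to 78.5) overlapped EpCAM-high CK19 and 63 (72.4%, 61.8 to 81.5) EpCAM-high Sox9. The highest Tumor Sox9 −log10 q was 58.9 in Pde4d, 31.0 in Etl4, 84.1 in Macrod2 and 44.8 in Syt1. Strong Tumor Sox9 regions without a start nearby included chr2:140772626-140773656 in Macrod2 (59.6, with 38.7 in EpCAM-high CK19 and 7.31 for EpCAM-high Sox9), chr13:109502669-109503352 in Pde4d (39.1, with 176 in EpCAM-high CK19 and 114 for EpCAM-high Sox9) and chr10:108885786-108887301 in Syt1 (36.9, with 75.1 and 17.0).

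**Figure D5:**
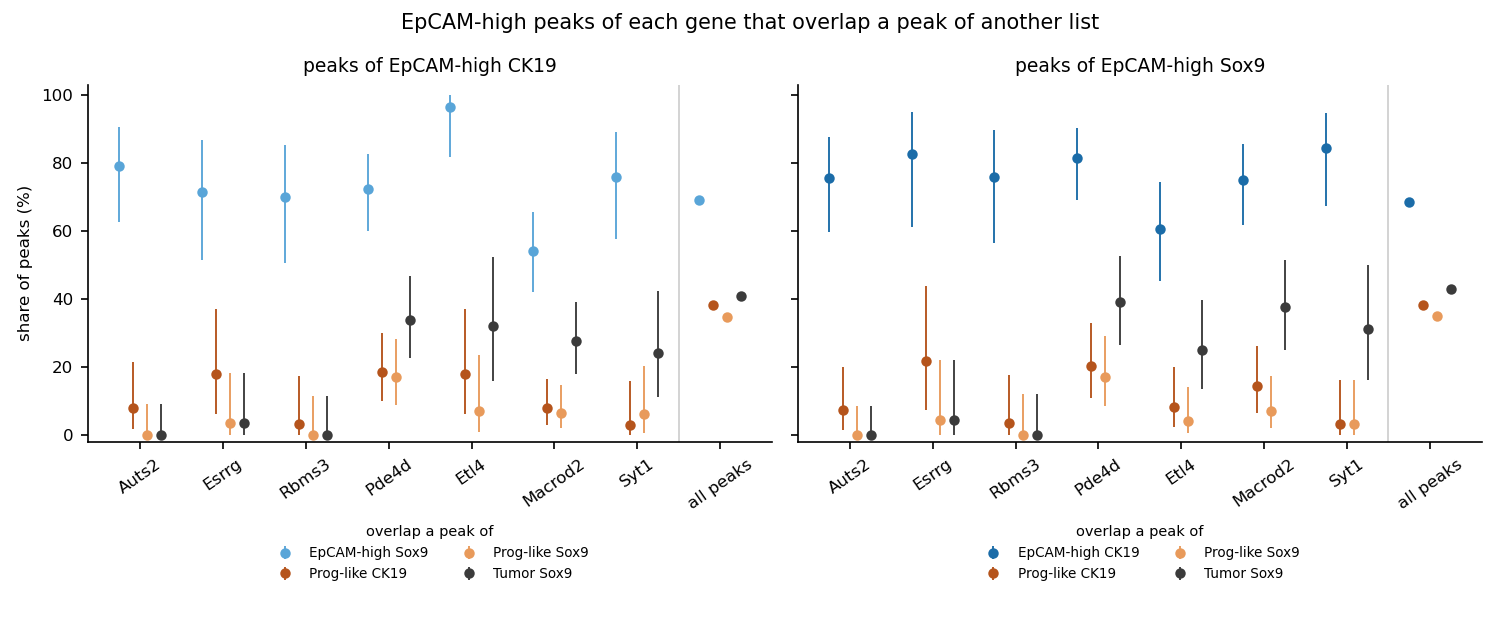
Share of the EpCAM-high CK19 (left) and EpCAM-high Sox9 (right) peaks of each gene that overlap a peak of another list (points, %; lines, exact 95% intervals), with the share over all peaks of the list at the right of each panel. Tumor Sox9 points are at or near 0 for Auts2, Esrrg and Rbms3, and Etl4 has the highest share with EpCAM-high Sox9 and the lowest with EpCAM-high CK19.

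All peaks of the 5 lists in the 7 loci merged into 454 regions, of 138775 in the genome. The choice favoured genes with many EpCAM-high and few Prog-like peaks, so it fixed the shares of these classes in part. They are a description. Regions in both EpCAM-high lists and no other made up 137 (30.2%), against 9.32% in the genome. Another 143 (31.5%, against 19.3%) were in 1 EpCAM-high list alone and 46 (10.1%, against 6.97%) in EpCAM-high and Tumor lists without a Prog-like one. Regions in all 5 lists numbered 13 (2.86%, against 9.75%), of which 9 were in Pde4d, 2 in Macrod2 and 1 each in Esrrg and Etl4. The Etl4 region, chr2:20672824-20673856, had −log10 q of 12.6, 5.55, 14.7, 8.59 and 4.30. One Pde4d region in all 5 lists, chr13:109440272-109441791, is at the start of the lncRNA Gm32703 (137, 59, 56.8, 64.3 and 6.73), and another, chr13:109902027-109904291, has −log10 q of 30.2, 25, 7.84, 8.32 and 11.7, and its Tumor Sox9 peak alone overlaps the miRNA gene Mir1904. Of the 9, chr13:109775999-109776667 had the highest Prog-like Sox9 value (67.8, 64.3, 88.2, 101 and 19.9), and chr13:109684986-109686301 the highest Prog-like CK19 value (70.0, 47.6, 95.7, 62.6 and 30.7). Another 20 regions (4.41%, against 6.28% in the genome) were in EpCAM-high and Prog-like lists without Tumor Sox9. In all 3 kinds of list but not all 5 there were 7 (1.54%, against 1.93%), and in Tumor Sox9 alone 33 (7.27%, against 8.45%).

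Pde4d and Macrod2 also held their own Prog-like regions. Of 26 regions in both Prog-like lists and no other, 15 were in Macrod2, 10 in Pde4d and 1 in Auts2. Those 26 made up 5.73% of regions in the 7 loci, against 25.8% in the genome, a low share that the choice of the genes fixed in part. In Macrod2 all 15 lay between 323 and 646 kb from the start, with median −log10 q of 63.7 for Prog-like CK19 and 29.0 for Prog-like Sox9. The strongest, chr2:140784411-140785236, had 215 for Prog-like CK19 and 222 for Prog-like Sox9. In Pde4d, 8 of the 10 lay between 550 and 800 kb, with medians over the 10 of 43.8 and 48.7. The strongest, chr13:109297978-109299456, had 188 and 149. In Macrod2 this stretch overlapped the one densest in EpCAM-high peaks, while in Pde4d the densest EpCAM-high windows began at 946 kb (EpCAM-high CK19) and 883 kb (EpCAM-high Sox9). The macrophage, leukocyte and endothelial marker peaks given above were also in the Prog-like lists, and their part in these regions was not tested.

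Paralogs of the 7 genes did not show the same direction as a group. Of 23 paralogs, 7 had more peaks in EpCAM-high CK19 than in Prog-like CK19, 13 had fewer and 3 had equal numbers. For Sox9 the numbers were 7, 12 and 4. With equal list lengths, 5 had more and 10 fewer for CK19, and 7 had more and 7 fewer for Sox9. The counts of single genes given next are from the lists as deposited. Pde4b, a cAMP phosphodiesterase gene of 519.9 kb, held 16, 20, 31, 29 and 10 peaks in EpCAM-high (CK19, then Sox9), Prog-like (CK19, then Sox9) and Tumor Sox9, and Rbms1, a related RNA-binding protein gene, 8, 11, 27, 26 and 11. Macrod1, the related ADP-ribose hydrolase gene, held 10, 8, 3, 3 and 8, and Esrrb, a related nuclear receptor gene, 2, 1, 1, 0 and 0. Of 19 other long genes listed for their length, 10 had more peaks in EpCAM-high CK19 than in Prog-like CK19 and 9 fewer (11 and 8 with equal list lengths). As deposited, Dlg2, a synaptic scaffold gene of 1973 kb, held 73, 34, 35, 30 and 20 peaks. Naaladl2 held 26, 25, 2, 1 and 9, while Exoc4, a subunit of the exocyst, held 2, 9, 36, 31 and 5 and Immp2l, a mitochondrial peptidase gene, 19, 11, 45, 43 and 11. Both directions thus occurred among these 19 genes, and the part of length was not tested.

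The gene with the pattern most like the 7 genes together, by the Euclidean distance between shares of peaks over the 5 lists at equal length among 102 other long genes with 30 or more peaks, was Kirrel3 (distance 0.032), with 12, 12, 2, 2 and 5 peaks. Plcb1 (0.062) had 24, 21, 3, 3 and 15, Dab1 (0.064) 17, 13, 2, 2 and 9, Naaladl2 (0.095) 17, 15, 0, 0 and 9 and Schip1 (0.105) 18, 16, 2, 5 and 13. The 7 genes themselves lay at distances between 0.10 (Syt1) and 0.216 (Auts2).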

How the data were processed

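ATAC-seq was made from sorted YFP-positive mouse liver cells, and the data used here are 5 narrowPeak lists, 1 per condition. The build mm10 and the tools Bowtie 1.1.2, MACS2, HOMER and deepTools are named, without roles, in the submitters' processing notes. On pooling, duplicate removal, shifting of reads for the transposase and depth the sources used here give nothing, so counts of peaks mix depth and accessibility. In the lists the authors deposited a score, a fold enrichment (a linear ratio), −log10 p and −log10 q values and a summit offset per peak. The deposited −log10 values served to order or threshold peaks inside one list only. The members and gene lists were chosen with earlier results of these data known. Loci were RefSeq GRCm38.p6 gene bodies with 10 kb flanks, peaks counted as shared at an overlap of 1 bp or more, and overlapping peaks of all lists were merged into regions. Equal lengths kept the 39644 peaks with the highest −log10 p. Named were the 7 genes, up to 4 genes of each fixed list of paralogs and long genes, cell type markers, genes inside the loci with peaks in both EpCAM-high lists (chosen from all of them after seeing values), the 5 genes nearest in pattern, and per gene the strongest region of each EpCAM-high list and regions in all 5 lists. Of the Pde4d regions in all 5 lists, 4 are described, and of the Prog-like regions those at the top of each cluster, also chosen after their values were seen. Promoter sequences are those of RefSeq (GRCm38.p6), matched by symbol for 6 of the 7 genes. Intervals are exact Clopper-Pearson 95% intervals. The overlap calculation was tested on simulated data. Python 3.11.15, numpy 2.4.6, pandas 2.3.3, scipy 1.17.1 and matplotlib 3.10.9 were used. Alternatives were equal list length, −log10 q of 5 or more, no flank, 50 kb flanks, summits inside the locus, overlap of 50% of either peak and summits within 200 bp. One marker of the biliary list and one of the motifs searched are not reported here.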

Additional observations from a re-analysis of the deposited data

How the results depend on the processing

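Of 129 alternative values for 31 main results, 104 stayed within the range set by counting error, or within 1.5 times for a count, and 25 moved, all given here. With equal list length, peaks in the 7 loci fell to 30 and 28 for the Prog-like lists (CK19, then Sox9). The share of EpCAM-high Sox9 peaks in EpCAM-high CK19 was then 81.7%, that in Prog-like CK19 4.95% and that in Tumor Sox9 29.2%, and of EpCAM-high CK19 peaks 4.21% were in Prog-like CK19 and 26.2% in Tumor Sox9. Regions numbered 78 in 1 EpCAM-high list alone, 2 in EpCAM-high and Prog-like lists without Tumor, 0 in all 3 kinds but not all 5 lists, 8 in all 5, 3 in 1 Prog-like list alone and 0 in Prog-like and Tumor. Long genes at least 4-fold higher numbered 7 for EpCAM-high Sox9 and 12 for EpCAM-high CK19 over Tumor Sox9. With −log10 q of 5 or more, Tumor Sox9 held 67 peaks in the 7 loci, 79.2% of EpCAM-high CK19 peaks were in EpCAM-high Sox9, and 23 long genes were 4-fold higher in EpCAM-high CK19 than in Prog-like CK19. Regions in the same order of kinds numbered 90 in 1 EpCAM-high list alone, 13 in EpCAM-high and Prog-like, 3 in all 3 kinds but not all 5, 16 in 1 Prog-like list alone, 0 in Prog-like and Tumor and 12 in Tumor alone. With summits within 200 bp, 70.1% of EpCAM-high Sox9 peaks were shared with EpCAM-high CK19. Fewer peaks enter by construction with equal list length and with the stricter threshold. For the summit distance the cause was not tested. For single genes, 145 of 175 values stayed and 30 moved. The median log2 ratio over long genes, given as background, changed sign for EpCAM-high Sox9 over Tumor Sox9 (0.68 as deposited, −0.04 at equal length) and for EpCAM-high CK19 over Prog-like CK19 (0.42 as deposited, −0.44 with −log10 q of 5 or more). It also did for EpCAM-high CK19 over EpCAM-high Sox9 (0.14 as deposited, −0.14 with −log10 q of 5 or more). For EpCAM-high Sox9 over Prog-like Sox9 it was 0 as deposited, 0.19 at equal length and −0.13 with −log10 q of 5 or more. The difference between the EpCAM-high lists changed sign for Auts2, Pde4d and Syt1 at equal length, and no direction was called for it.

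No paired analysis was possible because there is 1 peak list per condition and no test, and for the same reason no replicate was left out. Peak lists carry no read counts, so a site missing from a list is a site not called there and is not shown to be closed. Depth per list is unknown.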
